A study of Mus musculus with 11 samples.

Results

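Transcripts of 10 genes that sense microbial products were examined in liver sinusoidal endothelial cells (ECs) of mice kept without microbes (germ-free, GF) and of conventionally raised mice (CONV-R). The genes were chosen by symbol as the Toll-like receptors *Tlr2*, *Tlr3*, *Tlr4*, *Tlr7* and *Tlr9*, the lipopolysaccharide (LPS) handling proteins *Lbp*, *Cd14* and *Ly96*, and the signaling proteins *Myd88* and *Irak1*. All 10 were among the 29307 genes listed in the count table, and 9 of them had enough counts to be tested. Bulk RNA-sequencing was done on 1 library per mouse, with 6 CONV-R and 5 GF mice. All mice were C57BL/6J males aged 10 to 12 weeks, came from the same colonies and received the same standard diet. The CONV-R mice were kept under specific-pathogen-free conditions, so that the groups differed in their housing and colonization. The paper also reports fewer sorted ECs and less extracted RNA from GF livers, which cannot be told apart from colonization here. ECs were enriched on CD146-coated magnetic beads and then sorted for CD31+ CD105+ CD146+ cells, and 20 ng of total RNA was amplified as a whole transcriptome before sequencing.

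LPS, the outer membrane glycolipid of Gram-negative bacteria, is carried by LPS binding protein to CD14 and from there to MD-2, the product of *Ly96*, which presents it to TLR4. TLR2 recognizes bacterial lipoproteins at the cell surface, while TLR3, TLR7 and TLR9 bind double-stranded RNA, single-stranded RNA and unmethylated CpG DNA in endosomes. All of these receptors except TLR3 signal through the adaptor MyD88 and the kinase IRAK1 to NF-kappaB, and the liver sinusoids are a vascular bed that meets such gut-derived products in portal blood.

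For members with an entry in the RefSeq table of promoter windows, short stretches around known motif letters are shown to place the genes beside the response elements of their own pathway. The table held *Tlr2*, *Tlr3*, *Tlr9*, *Myd88* and *Irak1*, with 250 bases before and 50 bases after the start on GRCm38.p6. The stretches read 5′ to 3′ on the strand of the gene, and capitals mark the motif. The first 3 lines show GGNNNTTCC, letters of an NF-kappaB site, where 2 matches overlap in *Tlr2* and the match in *Myd88* is on the other strand, so that its reverse complement is printed. The next lines show GAAANNGAA of an interferon-stimulated response element (ISRE), GAGGAA of a PU.1 site and TGANTCA of an AP-1 site.
Tlr2, chr3:83841761-83841790, minus strand: aggacacctgGGGAATTCCCacacggagcc
Tlr3, chr8:45410572-45410601, minus strand: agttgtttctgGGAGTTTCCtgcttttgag
Myd88, chr9:119339996-119340025, minus strand: taagggaagtaGGAAACTCCacaggcgagc
Myd88, chr9:119340040-119340069, minus strand: ggagcttctcgGAAAGCGAAagaaggaggg
Tlr9, chr9:106222474-106222503, plus strand: ggagagtggaaaGAGGAAggggttgagggg
Tlr9, chr9:106222528-106222557, plus strand: gcaaatgatgtgTGACTCAttgtaccacct

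Searched on both strands, the NF-kappaB letters were present in the windows of *Tlr2*, *Tlr3* and *Myd88* and in 18.5% of all 32851 windows. The ISRE letters were found in *Myd88* and in 8.56% of all windows, the PU.1 letters in *Tlr9* and in 28.3%, and the AP-1 letters in *Tlr9* and in 7.81%. The GC box GGGCGG occurred in *Tlr2*, *Tlr3*, *Myd88* and *Irak1* and in 35.7% of windows, and TATAAA in *Myd88*, with 2 overlapping matches, and in 13.6%. The *Tlr9* window held 0 CpG dinucleotides, whereas those of *Tlr2*, *Tlr3* and *Myd88* held 11, 10 and 13, beside a median of 7 over all windows. Each listed window of *Irak1* held 22. These matches describe the letters only.

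The libraries held between 7242717 and 16164588 counts. The 8 sinusoidal EC markers summed to between 29802 and 35514 counts scaled to a common library size (CPM) in CONV-R and between 28668 and 39123 CPM in GF mice, and 0 of the 8 passed the edgeR test used below or DESeq2, with 2 at an unadjusted p under 0.05. Of 6 pan-endothelial markers, 0 passed either test, while 4 had an unadjusted p under 0.05 and a higher value in GF mice. In the principal components of all tested genes, CONV-R replicate 3 had a PC2 score of 48.1, with the other CONV-R mice between -17.6 and -6.01, and GF replicate 6 had the highest PC1 score of 61.2. Both libraries are therefore named wherever they carry a value. The 12 Kupffer cell and macrophage markers, none of which was at 0 in all libraries, had a higher mean in GF mice throughout, and 8 of the 12 passed the test. Their summed level lay between 111 and 288 CPM (median 151) in CONV-R and between 269 and 1174 CPM (median 338) in GF mice, with the highest sum in GF replicate 6, although the sort selected endothelial surface proteins. Of the defining Kupffer cell marker *Clec4f*, CONV-R mice had 17.7 to 60.8 CPM and GF mice 42.4 to 252 CPM.

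Relative to transcript length (TPM), *Ly96* was the most abundant member with 348 ± 122 TPM (mean ± SD, n = 11 mice). *Tlr3* followed with 173 ± 13.7 TPM, then *Irak1* with 118 ± 19.1, *Lbp* with 105 ± 20.2, *Tlr4* with 76.8 ± 9.91 and *Tlr2* with 67.8 ± 17.1 TPM. *Myd88* had 36.3 ± 8.38 TPM, and *Cd14*, *Tlr7* and *Tlr9* were rare with 10.4 ± 7.26, 5.45 ± 4.68 and 0.802 ± 0.822 TPM. Most neighbors in this order kept it in all 11 mice. The exceptions were *Irak1* above *Lbp*, which held in 7 of 11 mice, *Cd14* above *Tlr7* in 8, and *Tlr4* above *Tlr2* in 10. In TPM, the transcript of the LPS-binding partner of TLR4 was above that of the receptor itself in every mouse, with a ratio of *Ly96* to *Tlr4* of 3.35 to 9.6 in CONV-R and 2.16 to 5.76 in GF mice, whereas the co-receptor *Cd14* ranked among the rarest members. This order rests on the length correction, with merged exons of 1021 bases for *Ly96* and 5556 for *Tlr4*. In counts scaled to library size only (CPM), *Tlr4* had the higher mean, with 77.7 against 68.5 in CONV-R and 91.4 against 73.2 in GF mice.

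**Figure D1:**
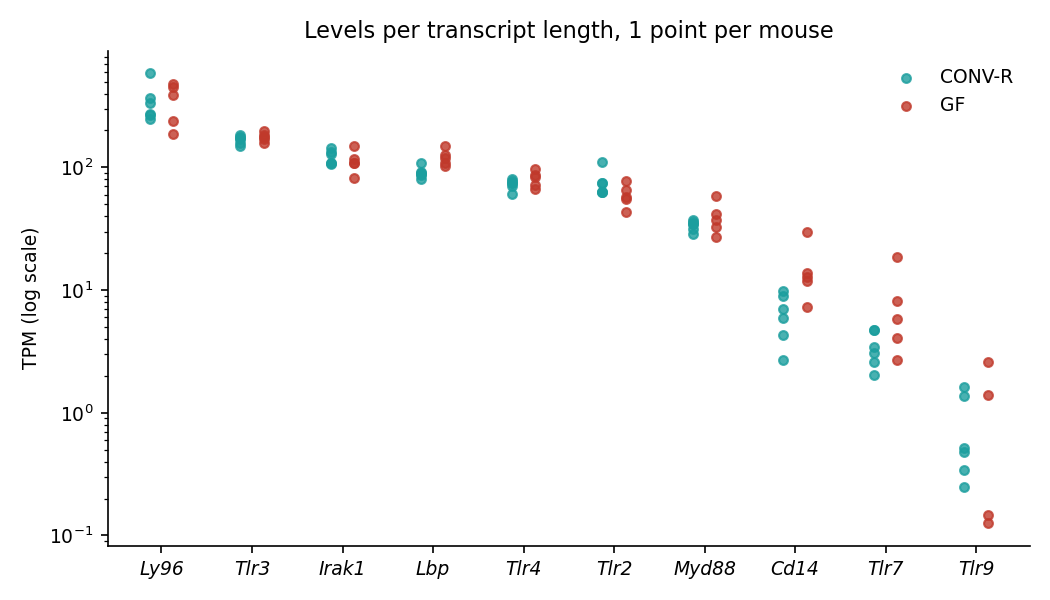
Level of each member in TPM (log scale) in every mouse, with CONV-R in turquoise and GF in red, ordered by the mean over the 11 mice. *Ly96* is highest and *Tlr9* lowest, and *Tlr9* of GF replicate 5, which had 0 counts, cannot be drawn on this scale.

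The comparison of GF with CONV-R mice asked which transcripts change when no microbiota is present. Of the 9 tested members, *Lbp* was the only one with an adjusted p under 0.05 in the quasi-likelihood test of edgeR, adjusted by Benjamini-Hochberg over all tested genes, and it was higher in GF mice. This is 11.1% of the tested members, and over all 12905 tested genes the same test called 7.48%, with 4.8% higher and 2.67% lower in GF mice. The value of 7 members was higher and that of 2 lower in GF mice, and their median Log2FC was 0.23, beside -0.01 over all tested genes. With DESeq2, which called 9.83% of the genes it adjusted, *Lbp*, *Cd14* and *Tlr7* were called.

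**Figure D2:**
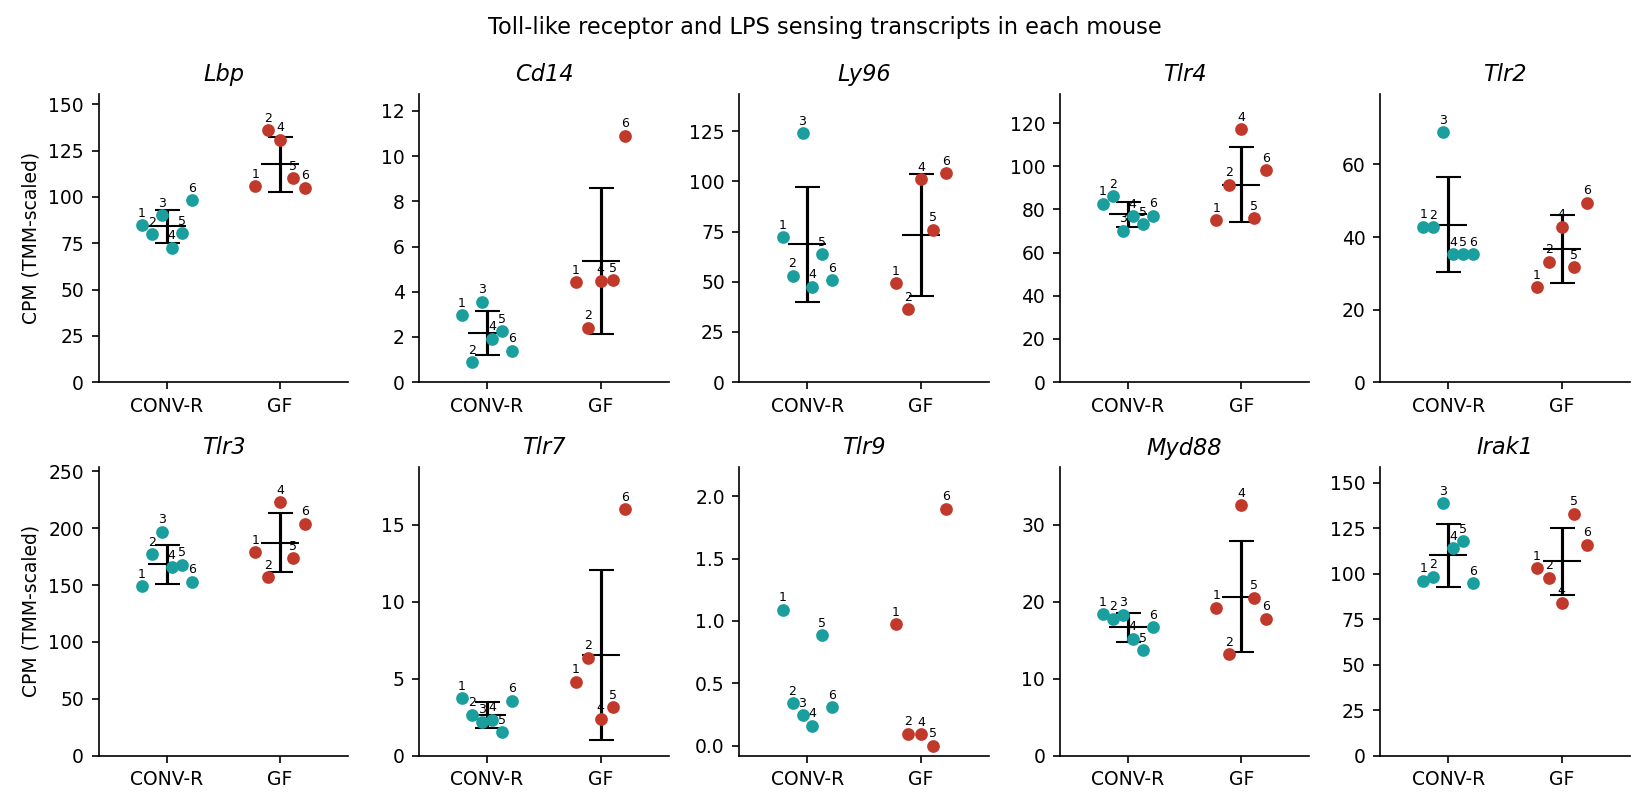
CPM of each member in every mouse, with CONV-R in turquoise and GF in red. Numbers are replicate numbers, and bars give the mean ± SD except for *Tlr9*, which was too weakly counted. *Lbp* is the only panel in which all GF mice, at 105 CPM or more, lie above all CONV-R mice, at 98.2 CPM or less.

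*Lbp* (chromosome 2 of GRCm38, 158306493 to 158332852), the secreted carrier that brings LPS to CD14, ranged from 72.6 CPM to 98.2 CPM in CONV-R mice (median 82.5 CPM). The GF replicates 1, 2, 4, 5 and 6 had 106, 136, 131, 110 and 105 CPM. Every GF mouse was above every CONV-R mouse, which was the case in either direction for 5.59% of all tested genes. The means were 118 ± 14.7 CPM in GF (SD, n = 5) and 84.3 ± 8.97 CPM in CONV-R mice (SD, n = 6), and the Log2FC was 0.48 ± 0.11 (SE; 95% interval 0.24 to 0.72) with an adjusted p of 0.0161 in edgeR's quasi-likelihood test. The two-sided exact permutation test over all 462 divisions of the mice gave p = 0.00433 for *Lbp*, where 0.00216 is the smallest value it can give. Over all alternatives the adjusted p of *Lbp* stayed between 0.00208 and 0.0485, and with both CONV-R replicate 3 and GF replicate 6 left out the Log2FC was 0.54.

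LBP is known mainly as an acute-phase product of hepatocytes, so the hepatocyte markers were read beside it. The 8 hepatocyte markers, none of which was at 0 in all libraries, summed to between 29.7 and 68.2 CPM in CONV-R and between 36.5 and 87.6 CPM in GF mice, and 0 of the 8 passed edgeR's test or DESeq2, with 1 at an unadjusted p under 0.05. The albumin gene *Alb* had 18.9 to 39.7 CPM in CONV-R and 19.9 to 43.7 CPM in GF mice. Per transcript length, *Lbp* stood at 0.979 to 1.98 times the level of *Alb* in CONV-R and at 1.17 to 3.31 times in GF mice. In bulk samples of this kind, fewer cells of a type and less RNA per cell cannot be told apart.

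*Cd14*, which hands LPS from LBP to MD-2 and which monocytes and macrophages are known to carry at high level, was weakly counted, with 13 to 80 counts per library. CONV-R mice lay between 0.888 and 3.56 CPM with a median of 2.09 CPM, and the GF replicates 1, 2, 4, 5 and 6 had 4.42, 2.41, 4.48, 4.50 and 10.9 CPM. Except for GF replicate 2, which fell within the CONV-R range, the GF mice were above all CONV-R mice. The Log2FC of *Cd14* was 1.30 ± 0.41 (SE; 95% interval 0.43 to 2.18), with an adjusted p of 0.0649 in edgeR's quasi-likelihood test and p = 0.013 in the exact permutation test, unadjusted over the 10 members so tested. Its adjusted p was 0.0231 with DESeq2, 0.0487 without a filter on low counts and 0.0496 with at least 10 counts in every library, but 0.0686 with voom of limma. On the normalized log2 values, limma gave a Log2FC of 0.87 with an adjusted p of 0.219 for *Cd14*. Without GF replicate 6 the Log2FC was 0.88 and the adjusted p 0.226 in edgeR's test, and without CONV-R replicate 3 they were 1.49 and 0.0426.

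*Ly96* (chromosome 1, 16688051 to 16709611), which encodes the LPS-binding subunit MD-2, varied widely in both groups. CONV-R mice ranged from 47.6 to 124 CPM with a median of 58.4 CPM, and the GF replicates 1, 2, 4, 5 and 6 had 49.2, 36.3, 101, 76.0 and 104 CPM. The groups overlapped over nearly the whole range, and CONV-R replicate 3 held the highest value of all. The Log2FC of *Ly96* was 0.10 ± 0.27 (SE; 95% interval -0.48 to 0.67), with an adjusted p of 0.879 in edgeR's test.

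*Tlr4* (chromosome 4, 66827584 to 66930284), the signal-transducing LPS receptor, was narrowly spread in CONV-R mice, from 70.1 to 86.2 CPM with a median of 77.0 CPM. The GF replicates 1, 2, 4, 5 and 6 had 75, 91.4, 117, 75.8 and 98.3 CPM. Of the GF mice, replicates 2, 4 and 6 were above all CONV-R mice, and replicates 1 and 5 lay within their range. The coefficient of variation was 7.6% in CONV-R and 18.9% in GF mice, and the Log2FC of 0.23 ± 0.13 (SE; 95% interval -0.03 to 0.50) had an adjusted p of 0.280 in edgeR's test.

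*Tlr2* (chromosome 3, 83836272 to 83841767), the lipoprotein receptor, ranged from 35.2 to 68.9 CPM in CONV-R mice (median 39.0 CPM). The GF replicates 1, 2, 4, 5 and 6 had 26.1, 33.2, 42.9, 31.7 and 49.5 CPM. GF replicates 1, 2 and 5 were below all CONV-R mice, but replicates 4 and 6 were not, and the highest value belonged to CONV-R replicate 3. The Log2FC was -0.24 ± 0.20 (SE; 95% interval -0.66 to 0.18), with an adjusted p of 0.506 in edgeR's test, and without CONV-R replicate 3 it was -0.07.

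Among the endosomal receptors, *Tlr3* (chromosome 8, 45395665 to 45411080) was the most abundant Toll-like receptor transcript of the 5. CONV-R mice ranged from 149 to 197 CPM with a median of 167 CPM, and the GF replicates 1, 2, 4, 5 and 6 had 179, 157, 223, 174 and 204 CPM. The groups overlapped, with GF replicates 4 and 6 above all CONV-R mice. The Log2FC of *Tlr3* was 0.15 ± 0.11 (SE; 95% interval -0.09 to 0.39), with an adjusted p of 0.450 in edgeR's test. Its exons share 381 bases with *Gm45542* on the opposite strand, and because the strand setting of the counting is not given, reads from the 2 genes may not have been told apart there.

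*Tlr7* (chromosome X, 167304929 to 167330558), the sensor of single-stranded RNA, ranged from 1.53 to 3.72 CPM in CONV-R mice (median 2.5 CPM), from 18 to 48 counts per library. The GF replicates 1, 2, 4, 5 and 6 had 4.81, 6.37, 2.38, 3.17 and 16.0 CPM. GF replicates 1, 2 and 6 were above all CONV-R mice and replicates 4 and 5 were within their range, with GF replicate 6 far above the rest. The Log2FC was 1.27 ± 0.43 (SE; 95% interval 0.37 to 2.18), with an adjusted p of 0.0809 in edgeR's test and p = 0.0498 in the exact permutation test. For *Tlr7*, DESeq2 gave an adjusted p of 0.0344 and edgeR without a filter 0.0443, whereas voom of limma gave a Log2FC of 0.93 with an adjusted p of 0.184 and limma on the normalized log2 values gave 0.75 with 0.384. Without GF replicate 6 the Log2FC of *Tlr7* was 0.65 with an adjusted p of 0.337 in edgeR's test, and without GF replicates 4 or 5 the adjusted p was 0.0393 or 0.0471.

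*Tlr9* (chromosome 9, 106222598 to 106226883), the receptor for CpG DNA, was close to the detection limit, with 38 counts over the CONV-R and 31 over the GF libraries. CONV-R mice ranged from 0.161 to 1.09 CPM, and the GF replicates 1, 2, 4, 5 and 6 had 0.975, 0.0966, 0.0952, 0 and 1.90 CPM. The 0 of GF replicate 5 allows up to 0.396 CPM (3 counts, for counting error only). A difference between the groups was not detectable at this depth (two-sided exact permutation test, p = 0.894).

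Neither signaling transcript passed the test. *Myd88* (chromosome 9, 119335934 to 119341411), the adaptor shared by the tested receptors other than TLR3, ranged from 13.7 to 18.4 CPM in CONV-R mice (median 17.2 CPM), and the GF replicates 1, 2, 4, 5 and 6 had 19.2, 13.2, 32.5, 20.5 and 17.8 CPM. The GF mice lay on both sides of the CONV-R range, with GF replicate 4 highest. The Log2FC was 0.31 ± 0.20 (SE; 95% interval -0.11 to 0.73), with an adjusted p of 0.372 in edgeR's test, and without GF replicate 4 it was 0.08 with an adjusted p of 0.841. The exons of *Myd88* share 290 bases with *Acaa1a* on the opposite strand.

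*Irak1* (chromosome X, 74013914 to 74023918), the kinase recruited by MyD88, ranged from 95 to 139 CPM in CONV-R mice (median 106 CPM). The GF replicates 1, 2, 4, 5 and 6 had 103, 97.9, 84.2, 133 and 116 CPM. The groups overlapped, with CONV-R replicate 3 highest and GF replicate 4 lowest. The Log2FC was -0.04 ± 0.14 (SE; 95% interval -0.33 to 0.24), with an adjusted p of 0.889 in edgeR's test.

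**Figure D3:**
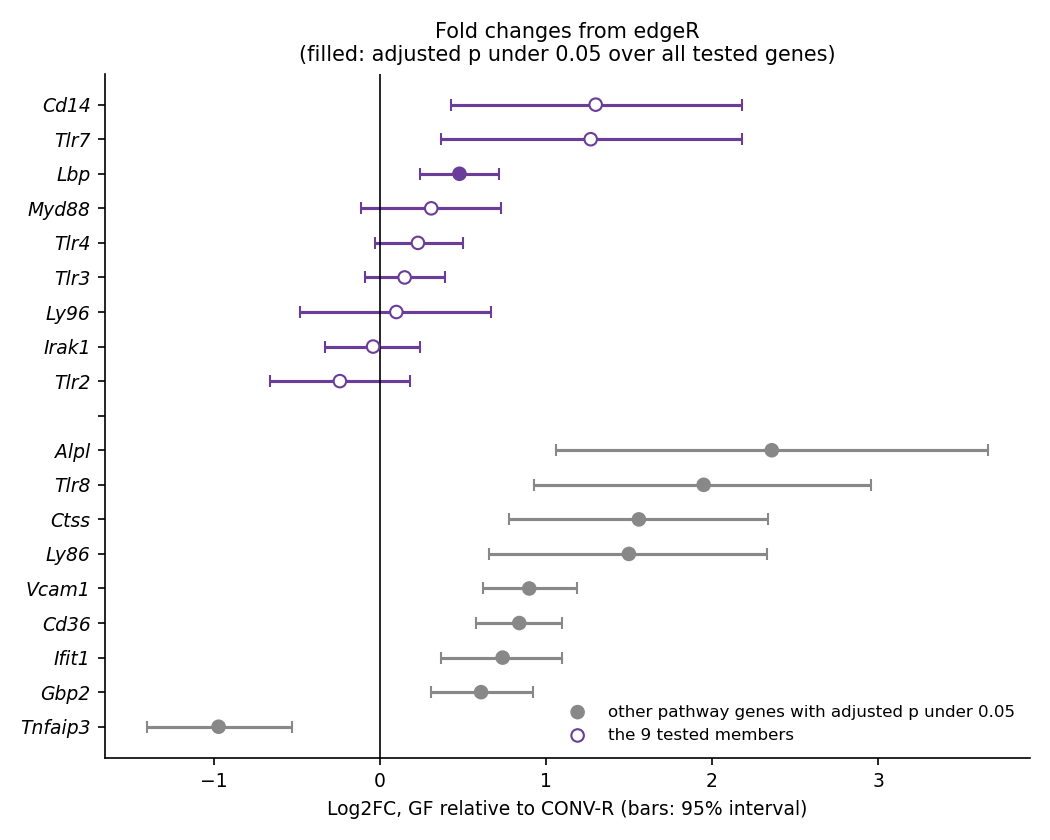
Log2FC of GF relative to CONV-R mice from edgeR with 95% intervals, for the 9 tested members (purple) and for the other pathway genes past the threshold (gray). Filled points have an adjusted p under 0.05. *Lbp* is the only filled member, while the intervals of *Cd14* and *Tlr7* are wide and lie above 0.

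GF replicate 6 was the highest mouse for *Cd14*, for *Tlr7* and for the summed macrophage markers. GF replicate 2, which had the next highest marker sum (453 CPM), was next highest for *Tlr7* but lowest of the GF mice for *Cd14*. The Log2FC of the 12 macrophage markers ran from 0.49 (*Cd68*) to 1.97 (*Adgre1*) with a median of 1.54, and those of *Cd14* (1.30) and *Tlr7* (1.27) lay within this range. The part of macrophage RNA in the *Cd14* and *Tlr7* values was not tested. GF replicate 6 was the highest GF library for 4 of the 9 tested members (*Cd14*, *Tlr7*, *Tlr2* and *Ly96*, 44.4%) and for the weakly counted *Tlr9*, beside 20% of all tested genes, and it was the lowest GF library for *Lbp*.

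**Figure D4:**
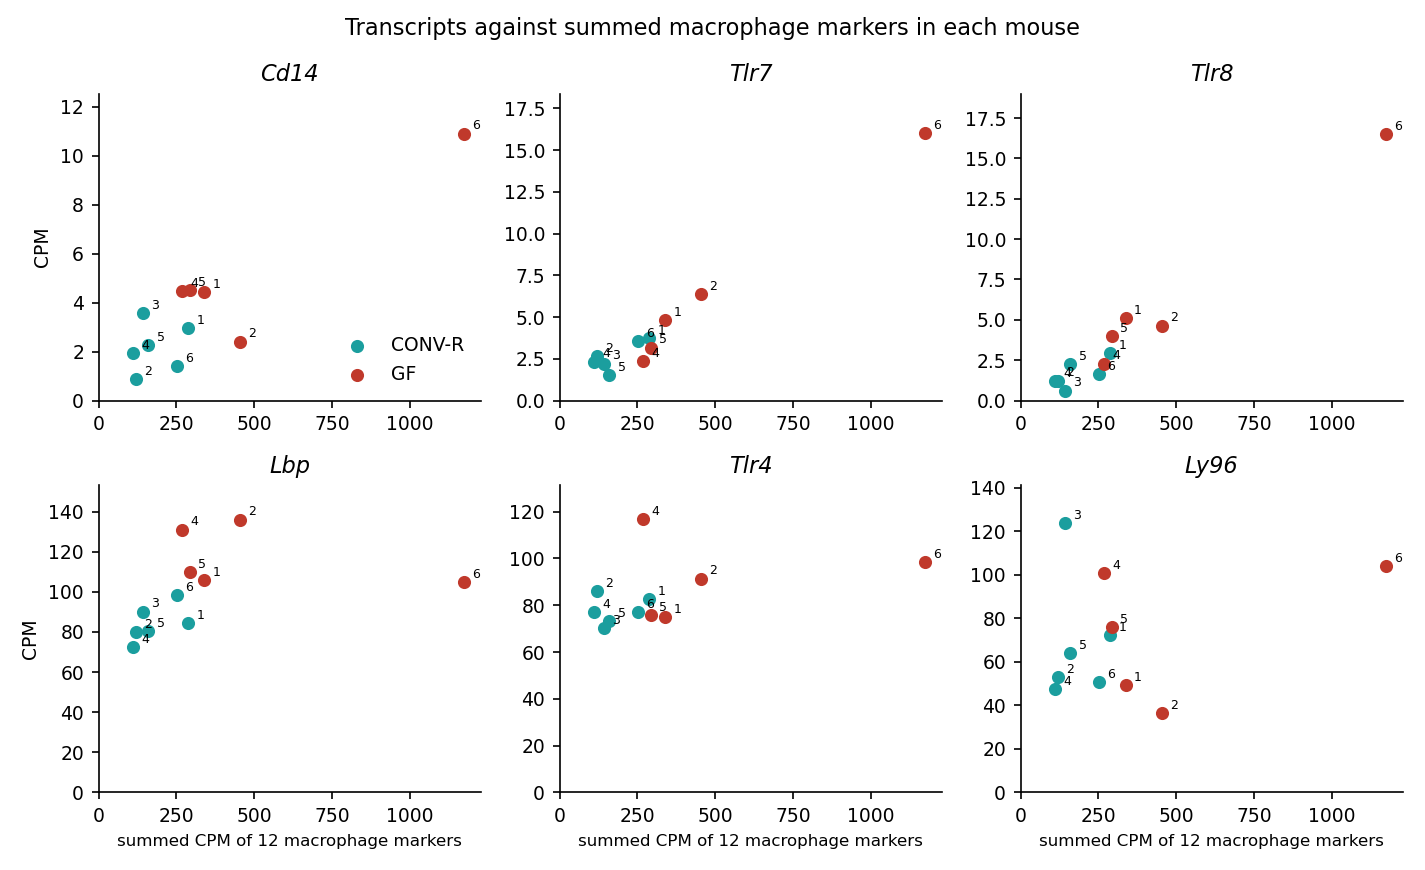
CPM of 6 transcripts against the summed CPM of the 12 Kupffer cell and macrophage markers in each mouse, with CONV-R in turquoise, GF in red and replicate numbers beside the points. GF replicate 6, with a marker sum of 1174 CPM, is highest for *Cd14*, *Tlr7* and *Tlr8*, but not for *Lbp*, *Tlr4* or *Ly96*.

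The genes most like *Tlr4* over the 11 mice, by Pearson's r of log2 CPM among 12904 genes, were *Adgrl4* (r = 0.944), *Calcrl* (0.918), *Zmpste24* (0.915), *Fut11* (0.909) and *Etf1* (0.901). *Adgrl4* and *Calcrl* encode receptors known from endothelium. Those most like *Cd14* were *Gata6* (r = 0.938), *Fam57a* (0.92), *H2-Ab1* (0.913), *Carns1* (0.913) and *Litaf* (0.908), of which *H2-Ab1* encodes a class II antigen-presenting chain. These values only rank genes measured in the same libraries, of which GF replicate 6 was the highest for *Cd14*.

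Around the members, 90 further genes of the pathway were read in 7 lists, of which 89 were listed and 76 tested. In edgeR's test, 8 of the 76 were higher and 1 was lower in GF mice (11.8%, beside 7.48% of all tested genes), and with both libraries that stood apart left out 5 of 76 passed, where 697 of 13050 genes (5.34%) were called. With DESeq2 the split was 9 higher and 4 lower of 81, where 1527 of 15540 genes (9.83%) were called. Without a filter on low counts it was 10 higher and 4 lower of 89, where 1134 of 25329 genes were called. In both settings *Tnf* and *Casp4* joined *Tnfaip3* among the lower ones, as did *Tab1* with DESeq2 and *Tnip1* without the filter. The median Log2FC of the 76 was 0.13. All GF mice lay above all CONV-R mice in 3 of the 76 (*Ctss*, *Cd36* and *Vcam1*) and below them in 1 (*Tnfaip3*). Such a separation in either direction was found in 5.59% of all tested genes.

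Of the 9 other Toll-like receptors and their partners, 6 were tested and 2 rose in GF mice. *Tlr8*, the neighbor and relative of *Tlr7*, ranged from 0.614 to 2.95 CPM in CONV-R mice (median 1.43 CPM), and the GF replicates 1, 2, 4, 5 and 6 had 5.13, 4.64, 2.29, 3.97 and 16.5 CPM. All GF mice but replicate 4 were above all CONV-R mice. The Log2FC of *Tlr8* was 1.95 ± 0.48 (SE), with an adjusted p of 0.0198 in edgeR's test, and without GF replicate 6 it was 1.27 with 0.0937. For *Ly86*, which encodes the MD-1 partner of the receptor CD180, the Log2FC was 1.5 ± 0.40 (SE) at an adjusted p of 0.0281 in edgeR's test, and without GF replicate 6 they were 1.14 and 0.102. The call on *Ly86* was also lost without CONV-R replicates 2, 4 or 5 or GF replicate 2, with adjusted p values of 0.0511 to 0.0711. The Log2FC values of *Tlr8* and *Ly86* lay within the range of the 12 macrophage markers (0.49 to 1.97). The sum of these markers was highest in GF replicate 6, and the part of macrophage RNA in the *Tlr8* and *Ly86* values was not tested. For *Tlr13*, a sensor of bacterial ribosomal RNA, the Log2FC was 2.02 at an adjusted p of 0.0537 in edgeR's test. GF replicate 6 was the highest mouse for *Tlr13* with 11.1 CPM, beside a median of 2.86 CPM in GF mice. *Tlr5*, *Tlr11* and *Tlr12* had too few counts.

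Of the 22 tested adaptors, kinases and transcription factors, 0 passed edgeR's adjustment, 5 had an unadjusted p under 0.05 and 1 passed with DESeq2 (*Tab1*, with a lower value in GF mice). In the same list 12 had higher and 10 lower values in GF mice, with a median Log2FC of 0.06. This list holds the remaining links from the receptors to NF-kappaB and the interferon regulatory factors, such as *Tirap*, *Traf6*, *Map3k7* and *Irf3*. *Traf6*, the ubiquitin ligase activated by IRAK1, had 102 ± 12 CPM in GF and 83.3 ± 10.1 CPM in CONV-R mice, and its Log2FC of 0.29 had an adjusted p of 0.151 in edgeR's test. *Ticam2* had too few counts.

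Of the 11 tested genes for folding, trafficking and cleavage of the receptors, *Ctss* rose. It encodes cathepsin S, an endosomal protease known to process TLR7 and TLR9 and abundant in macrophages. *Ctss* ranged from 15.2 to 31.6 CPM in CONV-R mice (median 22.2 CPM), and the GF replicates 1, 2, 4, 5 and 6 had 41.6, 46.2, 36.9, 38.3 and 180 CPM. Every GF mouse was above every CONV-R mouse, and GF replicate 6, with the highest macrophage marker sum, stood far above the others. The Log2FC of *Ctss* was 1.56 ± 0.37 (SE) with an adjusted p of 0.0156 in edgeR's test, and with both libraries that stood apart left out it was 0.81. With robust dispersion the adjusted p of *Ctss* was 0.0541 in edgeR's test, and DESeq2 gave none. The chaperone genes *Unc93b1*, *Hsp90b1* and *Cnpy3*, which TLR7 and TLR9 need, had Log2FC values of 0.13, 0.39 and 0.32 and did not pass.

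Of the 12 tested inhibitors of the pathway, *Tnfaip3* fell in GF mice and 11 did not pass. *Tnfaip3* encodes A20, an ubiquitin-editing enzyme that limits NF-kappaB signaling and is itself induced by it. CONV-R mice ranged from 43.2 to 109 CPM with a median of 54.5 CPM, and the GF replicates 1, 2, 4, 5 and 6 had 38.0, 26.2, 30.2, 27.6 and 35.0 CPM. Every GF mouse was below every CONV-R mouse. The Log2FC was -0.97 ± 0.21 (SE; 95% interval -1.40 to -0.53), with an adjusted p of 0.00837 in edgeR's test, and with both libraries that stood apart left out it was -0.77. The values of 9 of the 12 were lower in GF mice, with a median Log2FC of -0.15. CONV-R replicate 3 was the highest mouse of its group in 7 of the 12, and in 29.6% of all tested genes.

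Of the 11 tested genes for LPS binding, clearance and cytosolic sensing, *Cd36*, *Gbp2* and *Alpl* rose. *Cd36*, a scavenger receptor and partner of TLR2, ranged from 801 to 943 CPM in CONV-R mice (median 861 CPM), and the GF replicates 1, 2, 4, 5 and 6 had 1580, 1324, 2118, 1245 and 1555 CPM. Every GF mouse was above every CONV-R mouse, and the Log2FC of *Cd36* was 0.84 ± 0.12 (SE) with an adjusted p of 0.000514 in edgeR's test. For *Gbp2*, an interferon-induced GTPase of the cytosolic LPS response, the Log2FC was 0.61 ± 0.14 (SE) at an adjusted p of 0.0136 in edgeR's test, which was 0.0574 with both libraries that stood apart left out. *Alpl*, a phosphatase able to dephosphorylate LPS, was rare with 0.0803 to 2.34 CPM in CONV-R and 2.01 to 7.46 CPM in GF mice, and its Log2FC was 2.36 ± 0.61 (SE) with an adjusted p of 0.0264. Leaving out CONV-R replicates 2 or 6 or GF replicates 2 or 6 raised the adjusted p of *Alpl* in edgeR's test to between 0.0527 and 0.0884. Without CONV-R replicate 5, the CONV-R mouse at 2.34 CPM, the Log2FC of *Alpl* was 3.25 with an adjusted p of 0.00267 in edgeR's test.

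The NF-kappaB target genes as a list did not move one way. Of 12 genes, *Il6*, *Tnf*, *Cxcl2*, *Sele* and *Ptgs2* had too few counts for edgeR's filter, 5 of the 7 tested had lower values in GF mice, and *Vcam1* was the one that passed, in the opposite direction. *Tnf*, a main inflammatory cytokine, was nevertheless lower in every GF mouse than in every CONV-R mouse. Which cells the few *Tnf* counts came from was not tested. CONV-R mice had 0.643 to 2.58 CPM (median 0.793 CPM, 92 counts together), and the GF replicates 1, 2, 4, 5 and 6 had 0, 0.386, 0.0952, 0.264 and 0 CPM (7 counts together). The two-sided exact permutation test gave p = 0.00216, the smallest it can give. *Tnf* was named after its values were seen, so this unadjusted p only restates the separation. Without the filter the Log2FC of *Tnf* was -3.13 with an adjusted p of 0.0197 in edgeR's test, beside -3.2 and 0.00474 with DESeq2. *Vcam1*, a leukocyte adhesion molecule of activated endothelium, ranged from 125 to 209 CPM in CONV-R mice (median 137 CPM), and the GF replicates 1, 2, 4, 5 and 6 had 280, 340, 278, 239 and 277 CPM. Every GF mouse was above every CONV-R mouse. The Log2FC of *Vcam1* was 0.90 ± 0.14 (SE) with an adjusted p of 0.000661 in edgeR's test. CONV-R replicate 3 was the highest of its group in 6 of these 7 genes.

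Of the 7 tested interferon target genes, *Ifit1* rose, with 20 to 28.7 CPM in CONV-R and 26.6 to 56.0 CPM in GF mice. Its Log2FC was 0.74 ± 0.17 (SE) with an adjusted p of 0.0148 in edgeR's test, and without GF replicate 6 they were 0.61 and 0.0529. The other 6 did not pass, among them *Ifit3* with a Log2FC of 0.03 and *Cxcl10* with -0.59, and the median of the 7 was -0.15. CONV-R replicate 3 was the highest of its group in 6 of these 7 genes, too.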

How the data were processed

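The authors deposited raw counts per gene, for which reads were trimmed with Trim Galore, aligned to GRCm38 by STAR and assigned to genes by featureCounts. They removed 1 further GF library before deposit. Annotation release and strand setting of the counting are not given in the sources used here. The authors also deposited log2 values normalized across libraries, used here in 1 alternative with limma. Sample columns left unused numbered 0.

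Counts were filtered with filterByExpr, scaled by TMM and compared with edgeR 4.0.16 (R 4.3.3) by the quasi-likelihood test, adjusted by Benjamini-Hochberg over 12905 genes with a threshold of 0.05. CPM are TMM-scaled, and TPM use the merged exon lengths of GENCODE M21, to which 29146 of 29307 genes matched. Permutation tests used log2(CPM + 0.5). DESeq2 1.42.0 and voom of limma 3.58.1, other filters, size factors, robust dispersion, each mouse left out and a replicate block were alternatives, and leaving out CONV-R replicate 3 and GF replicate 6 together was added after seeing the data.

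The members and lists were chosen with earlier results of these data known. Named are all members, list genes with an adjusted p under 0.05 (at most 4 per direction and list), the 5 genes most correlated with *Tlr4* and *Cd14*, and markers that move with a result. A few others, *Tnf* among them, were named after their values were seen, and the markers of B cells and plasmacytoid dendritic cells are not reported here. Depth was 7242717 to 16164588 counts per library, so counting error weighs more on rare transcripts, but its part in their spread was not tested. Plots used matplotlib 3.10.9.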

Additional observations from a re-analysis of the deposited data

Results flagged for a closer look

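Of 38 groups of mice checked for a sample far from the others of its group, 7 held one. The checks of different genes used the same 11 libraries and are not independent, so the 7 are not set against a chance rate. CONV-R replicate 3 and GF replicate 6 accounted for 3 each. CONV-R replicate 3 was far above its group for *Tlr2* with 68.9 CPM, where the next mouse had 42.9, for *Ly96* with 124 CPM, where the next had 72.3, and for *Tnfaip3* with 109 CPM, where the next had 58.4. GF replicate 6 was far above its group for *Cd14* with 10.9 CPM, where the next had 4.5, for *Tlr8* with 16.5 CPM, where the next had 5.13, and for *Ctss* with 180 CPM, where the next had 46.2. CONV-R replicate 5 was far above its group for *Alpl* with 2.34 CPM, where the next had 0.621.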

How the results depend on the processing

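*Lbp* kept its direction and its call under all alternatives run. The number of members called was 1 as reported, 3 with DESeq2 or without a filter, 2 with at least 10 counts in every library and 1 to 2 with single mice left out. The number of genes called was 965 as reported, 1527 with DESeq2 and 622 to 1260 with single mice left out. The pathway genes called were 9 as reported, 14 without a filter, 5 with both libraries that stood apart left out and 5 to 16 with single mice left out. The Log2FC of *Ly96* ran from -0.06 to 0.34 and that of *Irak1* from -0.13 to 0.03 with single mice left out. The sign of *Ly96* turned without GF replicate 4 (-0.05) or 6 (-0.06), and that of *Irak1* without CONV-R replicate 3 (0.03), without GF replicate 4 (0.03) and with both libraries left out (0.0), all near 0. Same-numbered mice did not deviate together, with correlations of -0.0144 to 0.201, and 2 of 5 GF libraries correlated best with their own number. With the replicate number as a block over the 10 libraries that share numbers, 2 members were called (*Lbp* and *Cd14*) and the Log2FC of *Irak1* was 0.02, and without the block the same libraries gave 2 members and 0.03. The causes were not tested. *Tlr9*, *Cd14* and *Tlr7* were weakly counted, with at most 15, 80 and 118 counts per library.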
